A study of Mus musculus with 6 samples.

Results

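Expression of 7 Hedgehog pathway genes was measured in sorted mouse corneal keratocytes. They comprise the Hedgehog receptor Ptch1, the secreted and membrane-bound inhibitor Hhip, the signal transducer Smo, the co-receptors Gas1, Cdon and Boc, and Disp1, which releases the ligand. The genes were chosen by symbol for these roles, with earlier results of these data known. All 7 were among the 17606 genes of the series and had enough counts to be tested. Bulk RNA sequencing covered 3 control and 3 Ptch1-ablated libraries, described in the study's methods as biological replicates. In the Ptch1-ablated group the genotype was Prrx1-CreERT;Ptch1 f/f, in which tamoxifen activates a Cre recombinase made from the Prrx1 locus to delete floxed Ptch1. The control group is labelled only as ctrl, and whether its mice carried the Cre or the floxed allele is not given. Mice of both groups are labelled as 10 weeks old, with 3 doses of tamoxifen and a treatment time of 1 month. The study describes isolating keratocytes 1 month after tamoxifen. Whether the labelled age is that at induction or at collection was not settled. Prrx1 drives recombination in corneal keratocytes and, per the study, also in other mesenchymal cells of the eye. Per the study's methods the floxed line was backcrossed to C57BL/6. The markers used for the sort were not given in the sources used here.

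Hedgehog ligands act on cells through Ptch1, which without ligand holds the membrane protein Smo inactive. Ligand bound to Ptch1, usually together with a co-receptor of the Gas1, Cdon or Boc kind, frees Smo, and the Gli transcription factors then change gene expression. Ptch1 and Hhip are themselves transcribed in response to the pathway and restrain it, so their transcripts are widely read as a sign of Hedgehog activity. Disp1 acts in the ligand-producing cell, where it exports the lipid-modified ligand. Keratocytes are the resident mesenchymal cells of the corneal stroma.

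Library totals ran from 20258414 to 24788039 estimated counts, and the limit that a count of 0 allows, 3 counts, was 0.121 to 0.158 CPM (counts scaled to a common library total) and covers counting error only. Keratocyte markers were abundant in every library, with a summed level of 61245 to 64888 TPM (a measure that divides by transcript length) in controls and 42483 to 47017 TPM in Ptch1-ablated libraries. The 7 corneal epithelial markers summed to 50.8 to 89.5 TPM in controls and 3.71 to 8.77 TPM in ablated libraries, with Krt12 listed at 0 in all control libraries. Summed markers of mural cells (434 to 511 against 821 to 900.4 TPM), Schwann cells (40.9 to 56.7 against 87.4 to 121 TPM) and vascular endothelium (247 to 331 against 357 to 399 TPM) were higher in the ablated libraries without overlap. Those of corneal endothelium (358 to 421 against 308 to 501 TPM), leukocytes (1244 to 1454 against 1162 to 1551 TPM) and melanocytes (1.28 to 5.59 against 2.31 to 4.51 TPM) overlapped, with Dct listed at 0 in all ablated libraries. These sums depend on the TPM scale, on which the median log2 difference of all tested genes was 0.19. Kdr, the largest vascular endothelial marker, was lower in mean CPM after ablation (553 against 420, edgeR adjusted p = 0.112). The other 4 of the 5 vascular endothelial markers were higher. By single genes, 5 of 6 tested keratocyte markers and 3 of 6 tested epithelial markers fell, and Krt12 rose, as did 3 of 5 vascular endothelial, 2 of 4 mural, 1 of 4 Schwann cell and 1 of 5 corneal endothelial markers. The marker levels that differed between the groups moved with every gene described as changed, and their part in the results was not tested. In bulk samples fewer cells of a type and less RNA per cell cannot be told apart.

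Of the 7 genes, 4 rose in Ptch1-ablated keratocytes and none fell by edgeR's quasi-likelihood test at an adjusted p of at most 0.05. Hhip and Ptch1 rose by factors of 1001 and 22.1, whereas the co-receptors Cdon and Boc rose by factors of 2.02 and 1.83. Gas1, Smo and Disp1 did not pass the test. Among all 13888 genes tested, 4.68% were higher and 3.80% lower at this threshold. With at least a 2-fold difference required in addition, 3 of the 7 were higher (Ptch1, Hhip and Cdon) and 0 were lower, against 3.36% of all tested genes higher and 2.13% lower. Gas1 had an unadjusted edgeR p under 0.05 but an adjusted p of 0.227. The median log2 fold change was 0.87 over the 7 genes and 0.0046 over all genes tested. The CPM values of the groups did not overlap for 5 of the 7, against 27.4% of all tested genes.

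**Figure D1:**
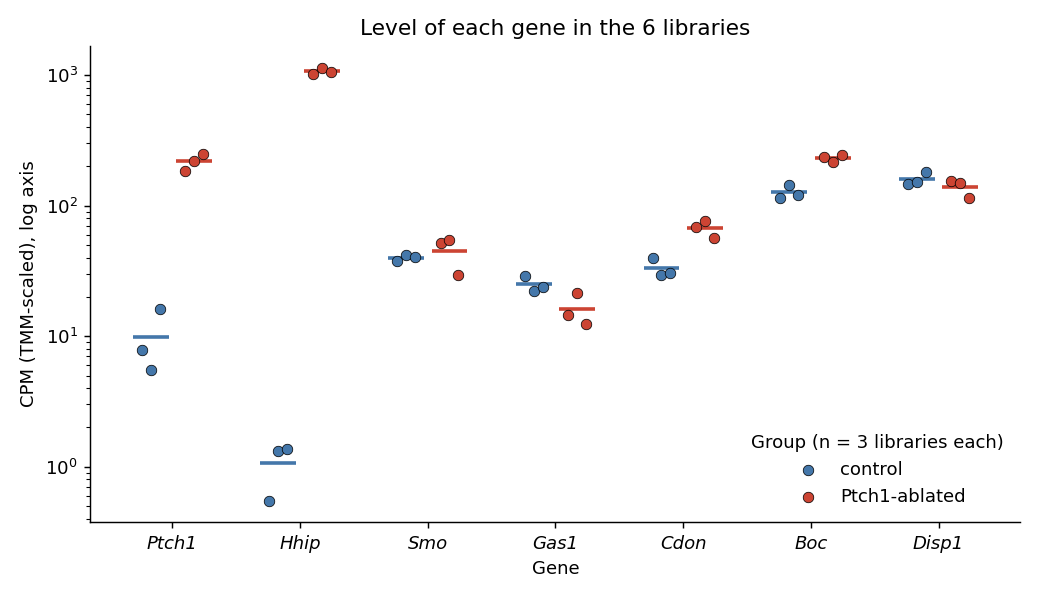
Level of the 7 genes in the 6 libraries, as TMM-scaled CPM on a log axis, with points for libraries (replicates 1 to 3 from left to right) and bars for group means. Hhip moved from 0.551 to 1.36 CPM in controls to 1022 to 1142 CPM in Ptch1-ablated libraries, while the ranges of Smo and Disp1 overlapped.

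The targeted receptor was examined first. Ptch1 (Entrez 19206) stood at 7.89, 5.47 and 16.2 CPM in the 3 controls and at 185, 221 and 251 CPM in the libraries labelled Ptch1-ablated. The lowest ablated library lay above the highest control, so that the gene total went against the direction that the label alone would give. Gene totals do not resolve the floxed exons, and the values therefore do not show whether these were deleted. On the log2 scale the difference was 4.47 ± 0.35 (SE), with a 95% interval of 3.71 to 5.23 and an adjusted p of 6.83e-06 by edgeR. Relative spread was wide in controls (9.84 ± 5.60 CPM, SD, n = 3) and smaller after ablation (219 ± 32.8 CPM, SD, n = 3). The transcript length implied by the counts and FPKM values was 7055 to 7085 bases in the 5 libraries with an FPKM of at least 1, a spread of 0.427%. It reflects the length used in quantification and cannot show whether exons were deleted.

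RefSeq (GRCm38.p6) placed a transcription start of Ptch1 inside the gene, which spans 63508328 to 63573598 on chromosome 13. The 250 bases before this start, chr13:63565736-63565985 on the minus strand, are printed because Ptch1 and Hhip rose together, with CpG dinucleotides in capitals.
Ptch1: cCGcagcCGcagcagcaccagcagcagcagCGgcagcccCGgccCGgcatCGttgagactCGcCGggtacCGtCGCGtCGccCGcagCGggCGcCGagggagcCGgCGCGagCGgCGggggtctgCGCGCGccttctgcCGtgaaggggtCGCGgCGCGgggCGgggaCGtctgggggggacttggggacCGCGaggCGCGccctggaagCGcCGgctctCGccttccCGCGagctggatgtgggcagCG
The window held 41 CpG and had a GC content of 78.4%. No annotated exon overlapped it. These coordinates belong to the build of the RefSeq table, whereas mm9 is the build in the submitters' processing notes.

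Hhip encodes a Hedgehog-interacting protein that binds all Hedgehog ligands and keeps them from Ptch1. Hhip (Entrez 15245) was scarce but above the limit of 3 counts in controls, at 0.551, 1.31 and 1.36 CPM, which correspond to 12, 25 and 31 counts. Ablated libraries held 1022, 1142 and 1065 CPM, or 23979, 26893 and 26452 counts. The groups were thus about 3 orders of magnitude apart, and the coefficient of variation within the ablated group was 5.67%. By edgeR the log2 fold change was 9.97 ± 0.27 (SE), with an adjusted p of 2.00e-09 and a 95% interval of 9.39 to 10.5. By mean TPM, Hhip ranked 13700 of 17606 genes in controls and 186 of 17606 in ablated libraries. Ptch1 moved from rank 11224 to rank 2327. The implied transcript length of Hhip in the 3 ablated libraries was 3953 to 4260 bases, a spread of 7.76%.

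The Hhip window, chr8:80058009-80058258 on the minus strand of the same build, is given in the same form and ends next to the annotated start of the gene.
Hhip: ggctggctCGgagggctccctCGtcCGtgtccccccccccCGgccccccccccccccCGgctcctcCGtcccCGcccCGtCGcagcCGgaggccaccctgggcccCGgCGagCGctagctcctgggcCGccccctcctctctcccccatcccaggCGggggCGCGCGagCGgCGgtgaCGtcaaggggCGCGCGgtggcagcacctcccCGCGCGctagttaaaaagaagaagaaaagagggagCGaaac
It held 28 CpG and had a GC content of 76.0%. In their full windows, which extend from 250 bases before to 50 bases after the start, Ptch1 held 47 CpG and Hhip 30, against a median of 7 over the 32851 RefSeq windows.

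Smo, the seven-pass transmembrane protein that carries the signal once Ptch1 is occupied, did not differ beyond the spread between replicates. Smo (Entrez 319757) was at 37.9, 41.9 and 40.1 CPM in controls and at 51.5, 54.5 and 29.6 CPM in ablated libraries. Ablated replicates 1 and 2 lay above all controls and replicate 3 below them. This gave a log2 fold change of 0.18 with an SE of 0.24 and an edgeR adjusted p of 0.764. Its 95% interval, -0.36 to 0.71, excludes a 2-fold difference in either direction. Leaving out ablated replicate 3 gave 0.40 and leaving out ablated replicate 2 gave 0.024. Replicate 3 was also the lowest of the ablated libraries for Gas1, Cdon and Disp1, but the highest for Ptch1 and Boc.

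The Smo window, chr6:29735247-29735496 on the plus strand, is shown for comparison with those of Ptch1 and Hhip.
Smo: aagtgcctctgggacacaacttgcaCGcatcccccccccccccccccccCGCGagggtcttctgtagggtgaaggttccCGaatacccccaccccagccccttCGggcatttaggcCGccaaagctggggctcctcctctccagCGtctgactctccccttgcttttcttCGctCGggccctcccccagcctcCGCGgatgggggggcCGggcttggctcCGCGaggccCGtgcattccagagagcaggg
It held 15 CpG at a GC content of 68.4%, and its full window 17. Among the other full windows, that of Cdon, which also rose, held 3 CpG. Its start lies inside the gene, which spans 35421128 to 35507652 on chromosome 9. Of the 250 bases before that start (chr9:35451826-35452075, plus strand), 31 are in annotated exons. The Gas1 window held 17 and those of Disp1 18 and 4, the latter from a start inside the gene. Windows were found for 6 of the 7 genes (all but Boc), 7 windows in all since Disp1 had a pair of them. The Gli consensus GACCACCCA (reverse complement TGGGTGGTC), searched on both strands, was present in 83 of all 32851 windows (0.253%) and in 0 of the 7 windows. With up to 1 mismatch it was in 2214 windows (6.74%) and again in 0 of the 7. A match of this kind is a description of letters, and its absence from 300 bases says nothing about binding elsewhere.

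**Figure D2:**
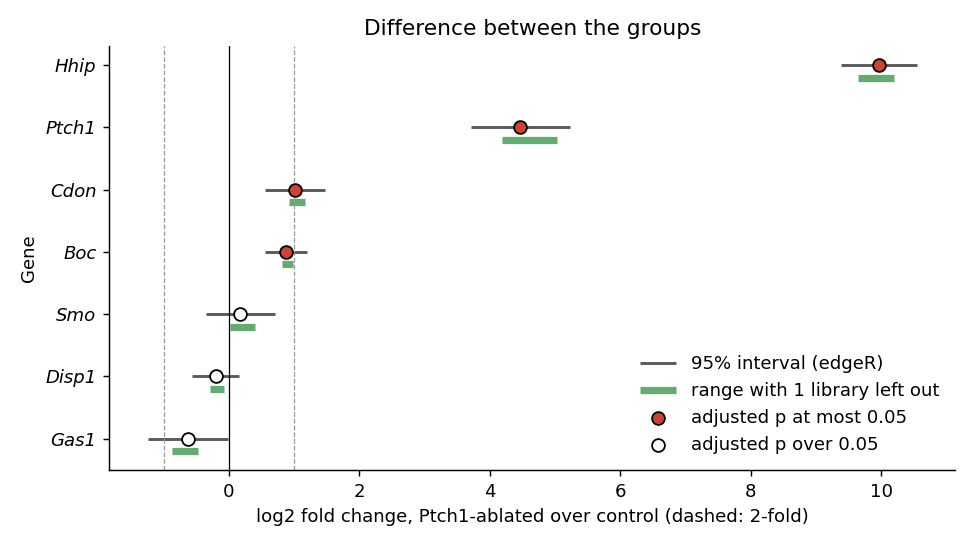
Log2 fold change of each gene, Ptch1-ablated over control, with the 95% interval (grey), the range when 1 library is left out (green) and the 2-fold lines (dashed), with filled points for an adjusted p of at most 0.05. Hhip (9.97) and Ptch1 (4.47) lie far from the other genes, and Cdon (1.01) and Boc (0.87) lie next to the 2-fold line.

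The co-receptors Gas1, Cdon and Boc bind ligand and present it to Ptch1. Gas1 is attached to the membrane by a lipid anchor, while Cdon and Boc are related members of the immunoglobulin superfamily. Boc was the most abundant of them and rose. It was at 115, 144 and 120.2 CPM in controls and 236, 216 and 243 CPM in ablated libraries (126.5 ± 15.6 against 231.6 ± 13.9 CPM, SD, n = 3 each). No ablated library overlapped a control. For Boc (Entrez 117606) edgeR gave a log2 fold change of 0.87 with an SE of 0.15, or 1.83-fold, a 95% interval of 0.55 to 1.19 and an adjusted p of 0.00252, so that it passed the test but not the 2-fold minimum.

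Cdon (Entrez 57810) was at 39.7, 29.4 and 30.6 CPM in controls and at 68.8, 76.1 and 56.5 CPM in ablated libraries. Again the groups did not overlap. Cdon differed by 1.01 ± 0.21 on the log2 scale (SE, 95% interval 0.56 to 1.47), with an adjusted p of 0.00920 by edgeR. A fold of 2.02 sits at the 2-fold minimum, and omitting single libraries gave log2 values between 0.92 and 1.16. Without control replicate 2 the value of Cdon was 0.93 and the edgeR adjusted p 0.0527, so that the call was lost. The implied transcript length of Cdon varied from 7239 to 7939 bases over the 6 libraries (9.68%), compared with 0.281% for Boc and 0.323% for Gas1.

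Gas1 (Entrez 14451) had 29.0, 22.3 and 23.7 CPM in controls and 14.7, 21.3 and 12.4 CPM in ablated libraries. The groups did not overlap in CPM, although ablated replicate 2 lay close to control replicate 2, and in TPM they overlapped (15.2 to 19.7 against 9.50 to 18.0). A log2 fold change of -0.63 ± 0.28 (SE, 95% interval -1.25 to -0.018) had an unadjusted p of 0.0447 and an edgeR adjusted p of 0.227, so that Gas1 did not pass the test. Omitting ablated replicate 2 gave -0.88, and omitting ablated replicate 3 gave -0.48.

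Disp1, a transporter-like protein with a sterol-sensing domain as in Ptch1, did not differ detectably. Disp1 (Entrez 68897) was at 147, 151 and 182 CPM in controls and at 155, 149 and 114 CPM in ablated libraries. The ranges overlapped, with control replicate 3 highest and ablated replicate 3 lowest. With a log2 fold change of -0.20, an SE of 0.17 and an edgeR adjusted p of 0.567, the 95% interval of -0.56 to 0.16 excludes a 2-fold difference in either direction. On the log2(TPM + 1) scale Disp1 was at -0.0082. On that scale the median of all tested genes lay at 0.19, so that values in TPM stand higher by about that amount than those in CPM.

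Levels of different genes were compared in TPM, which accounts for transcript length. In controls the order of mean TPM was Disp1 (69.6 ± 9.78), Boc (60.1 ± 7.08), Smo (26.3 ± 1.27), Gas1 (17.2 ± 2.30), Cdon (8.86 ± 1.43), Ptch1 (2.80 ± 1.66) and Hhip (0.493 ± 0.333, SD, n = 3 for each gene). Disp1 and Boc overlapped, whereas every other neighbouring pair was separated in all 3 control libraries. Control keratocytes therefore held the transcripts of the transducer and of all 3 co-receptors at higher levels than those of the receptor and the inhibitor. In ablated libraries the order was Hhip (603 ± 57.0), Boc (127 ± 1.52), Ptch1 (71.5 ± 10.2), Disp1 (69.7 ± 13.3), Smo (34.7 ± 11.7), Cdon (19.9 ± 3.99) and Gas1 (13.0 ± 4.42, SD, n = 3 for each gene). Ptch1 and Disp1 could not be ranked, and the ranges of Smo and Cdon and of Cdon and Gas1 also overlapped, although Smo exceeded Cdon and Cdon exceeded Gas1 within each of the 3 libraries. Hhip changed from the least to the most abundant of the 7 transcripts.

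The summed level of the 7 transcripts was 185 ± 11.5 TPM in controls and 939 ± 85.6 TPM in ablated libraries (SD, n = 3 each). Hhip made up 0.260 ± 0.168% of this sum in controls and 64.2 ± 0.381% after ablation (SD, n = 3 each). The 3 co-receptors together gave 86.2 ± 3.82 TPM in controls and 160 ± 6.96 TPM in ablated libraries, yet their share of the 7 transcripts was 46.6 ± 3.59% and 17.1 ± 0.808% (SD, n = 3 each). Shares add up to 100%, so that a larger Hhip share lowers the others whatever their own level. Among the co-receptors alone, Boc held 69.6 ± 5.36% in controls and 79.6 ± 4.24% in ablated libraries, Gas1 20.04 ± 3.35% and 8.04 ± 2.39%, and Cdon 10.3 ± 2.01% and 12.4 ± 1.97% (SD, n = 3 each). The Boc and Gas1 shares did not overlap between the groups, and the Cdon shares did.

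**Figure D3:**
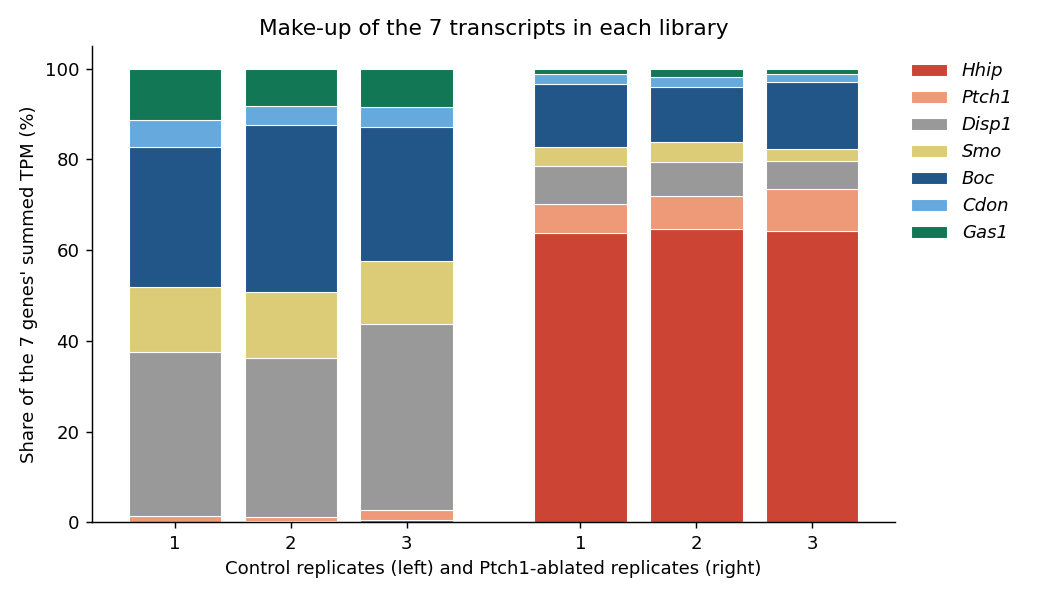
Share of each gene in the summed TPM of the 7 genes, 1 bar per library, with controls on the left and Ptch1-ablated libraries on the right. Hhip takes 63.8 to 64.5% of the sum in the ablated libraries and 0.0687 to 0.385% in the controls.

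Ratios of transcripts within a library do not depend on how libraries are scaled against each other. For 4 pairs they were compared by a two-sided exact permutation test, which cannot go below p = 0.1 with 3 against 3. The Hhip to Ptch1 ratio was 0.0548, 0.392 and 0.163 in controls and 9.87, 8.74 and 7.05 in ablated libraries (exact p = 0.1, adjusted over the 4 pairs 0.133). The Ptch1 to Smo ratio, receptor to transducer, was 0.0880, 0.0568 and 0.172 in controls and 1.54, 1.73 and 3.64 after ablation (exact p = 0.1, adjusted 0.133). Thus Hhip exceeded Ptch1, and Ptch1 exceeded Smo, in all 3 ablated libraries and in none of the controls. The Gas1 to Cdon ratio was 1.90, 2.01 and 1.94 in controls and 0.566, 0.758 and 0.604 in ablated libraries (exact p = 0.1, adjusted 0.133). Gas1 thus exceeded Cdon in all 3 controls and in none of the ablated libraries, although Gas1 alone did not pass the edgeR test. Boc to Cdon ratios, in contrast, overlapped, at 5.19, 8.97 and 6.79 in controls and 6.30, 5.30 and 8.14 in ablated libraries (exact p = 0.8).

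**Figure D4:**
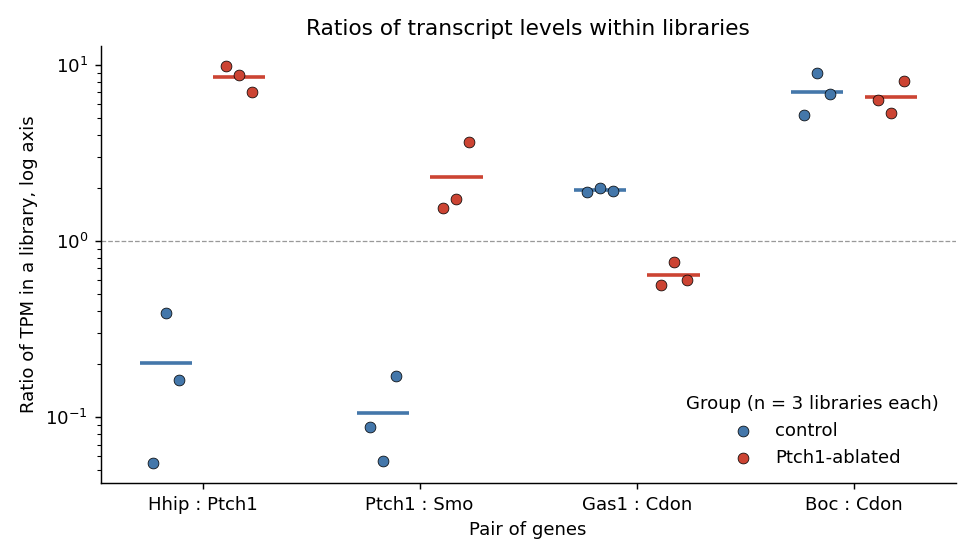
Ratios of TPM between pairs of genes within each library, on a log axis, with points for libraries, bars for group means and a dashed line at equal levels. The first 3 ratios cross the line between the groups, and the Boc to Cdon ratio stays between 5.19 and 8.97.

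The remaining pathway genes were taken from lists arranged by role. Of the listed genes 28 had a row, 26 were tested, 3 rose and 2 fell by at least 2-fold with an adjusted p within 0.05, the median log2 fold change was 0.28, and the groups did not overlap in CPM for 10. Over all tested genes the shares are 3.36% higher, 2.13% lower and 27.4% without overlap, and the median is 0.0046. Without control replicate 1 the count of 5 dropped to 3, as Scube1 and Gli3 no longer passed both thresholds. Shh, Lrp2 and Gpc5 were not analysed here, and Ihh and Disp2 had too few counts to be tested. The only ligand gene tested was Dhh, at 0.736 to 3.77 CPM in controls and 1.91 to 8.44 CPM in ablated libraries (log2 fold change 1.26 ± 0.77, SE, edgeR adjusted p = 0.406).

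Among 4 tested genes for ligand acylation and release, Scube1, a secreted protein that carries the ligand off the cell, fell from 18.8, 9.52 and 8.49 CPM to 3.24, 3.27 and 1.45 CPM. The groups did not overlap. Its log2 fold change was -2.21 (SE 0.50), with an edgeR adjusted p of 0.0168, and the call of Scube1 was lost without control replicate 1 (-1.76, adjusted p = 0.0809), without ablated replicate 3 (-1.92, adjusted p = 0.0689) and in limma on log2(TPM + 0.1) (-2.09, adjusted p = 0.0692). Hhat, Scube2 and Scube3 did not pass the test.

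The 5 surface binders tested were glypicans, proteoglycans that hold ligands near the membrane, and none of them passed the test. Gpc3, the most abundant of them by TPM over all 6 libraries, although Gpc4 was above it in the controls, was at 330, 338 and 403 CPM in controls and at 354, 386 and 416 CPM in ablated libraries. These ranges overlapped, and by edgeR Gpc3 had a log2 fold change of 0.11 (SE 0.13) with an adjusted p of 0.720.

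Of 16 genes for signal transduction, 3 rose and 1 fell. The activator Gli1 (log2 fold change 7.15 ± 0.54) and Gli2 (1.75 ± 0.27) were higher and Gli3, the main repressor, was lower (-1.10 ± 0.19). Control counts of Gli1 were low, at 1, 20 and 36, the first of them under the limit of 3 counts. Without control replicate 3 the log2 fold change of Gli1 was 7.91, while limma on log2(TPM + 1) gave 5.88. Evc2, part of a complex that relays the Smo signal near the base of the primary cilium, rose from 24.7, 36.1 and 34.7 CPM to 62.7, 98.7 and 65.3 CPM. By edgeR Evc2 had a log2 fold change of 1.25 (SE 0.24) with an adjusted p of 0.00586, while its partner Evc was at 0.11 (SE 0.21) with an adjusted p of 0.838. The difference between the pair was not tested. The other 12 genes, among them Sufu, a Gli inhibitor, Kif7, a ciliary kinesin, and Gpr161, a ciliary receptor that restrains the pathway, did not pass the test.

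**Figure D5:**
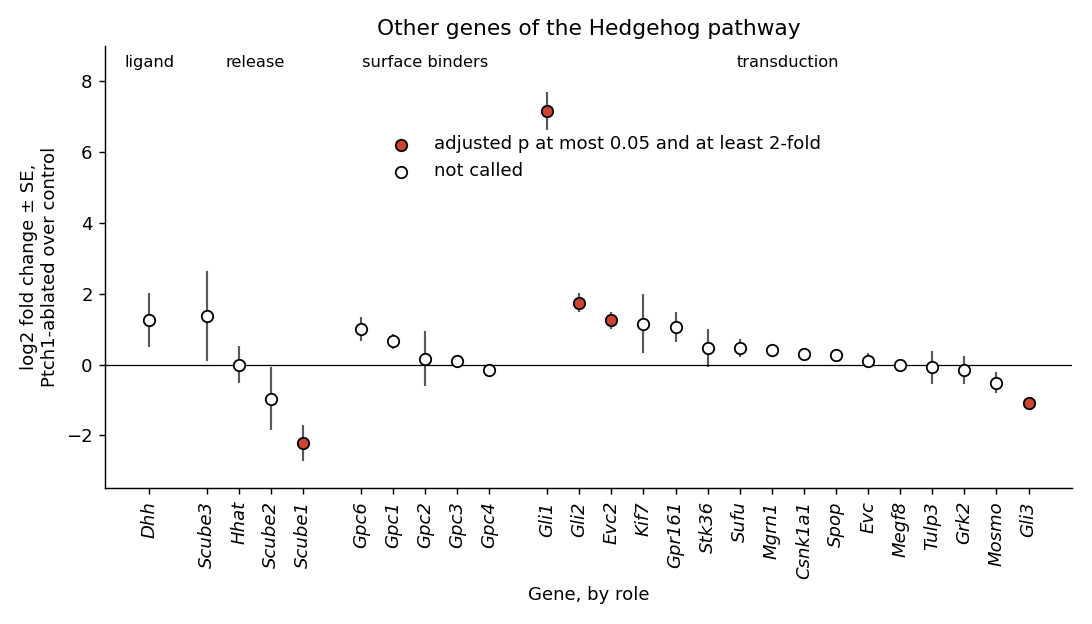
Log2 fold change ± SE, Ptch1-ablated over control, of the 26 other pathway genes tested, arranged by role, with filled points for an adjusted p of at most 0.05 and at least 2-fold. Gli1 (7.15) lies highest, and Gli3 (-1.10) and Scube1 (-2.21) are the called genes below 0.

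For each of the 3 genes past both thresholds, the profiles most like its own over the 6 libraries were sought among 11438 tested genes that averaged 100 counts or more in 1 of the groups, by the root mean square (RMS) difference of centred log2(CPM + 0.5). Nearest to Ptch1 were Ltbp2 (RMS 0.292), a latent TGF-beta binding protein, and Aldh1a2 (0.354), a retinoic acid synthesizing enzyme. Ltbp2 rose from a mean of 5.88 to 151 CPM, at a log2 fold change of 4.67 (SE 0.28) and an edgeR adjusted p of 8.11e-07. The edgeR log2 fold change of Aldh1a2 was 5.85 (SE 0.99), against 4.47 for Ptch1. Nearest to Hhip were Lrrc15 (1.38), Gli1 (1.41) and the tetraspanin Tspan11 (1.56), distances several times larger than those of Ptch1. Control counts were 0 to 20 for Aldh1a2, 0 to 39 for Lrrc15, 1 to 36 for Gli1 and 0 to 1 for Tspan11. At such counts the 0.5 added before the log2 affects the distance. The distances of Aldh1a2, Lrrc15, Gli1 and Tspan11 are therefore uncertain, as is their comparison. Nearest to Cdon were Asap1 (0.0648), Snai1 (0.0893), a transcription factor of mesenchymal cells, and the phosphatase Ptpn1 (0.0961). Asap1 rose from a mean of 95.3 to 191 CPM (log2 fold change 1.00, SE 0.16, with an edgeR adjusted p of 0.00204). With 6 libraries in 2 groups, likeness follows mainly the size of the difference between groups.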

How the data were processed

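RNA was sequenced from keratocytes sorted by flow cytometry, 3 control and 3 Ptch1-ablated libraries, grouped by the sample titles. The labels name a TruSeq kit, whereas the study's methods name ribosomal RNA depletion and a BGISEQ platform, and the values do not settle this. Alignment was with Bowtie2 (version 2.2.5), quantification with RSEM (version 1.2.12), and the build named in the submitters' processing notes is mm9. The deposited table holds RSEM estimated counts, which are not normalized, TPM values, which the authors scaled so that length-corrected levels share 1 total, and FPKM values, which the authors divided by length and by mapped fragments. Of the deposited counts 18.6% were not whole numbers and were rounded. Strand is not given in the sources used here, so overlapping genes are uncertain. Columns with the authors' group averages were not used.

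Genes were kept by filterByExpr, scaled by TMM and compared with edgeR's quasi-likelihood test (two-sided, without covariates), and p-values were adjusted by Benjamini-Hochberg across the 13888 genes tested. Rose and fell refer to an adjusted p of at most 0.05. The study's thresholds add a fold change of at least 2. CPM refers to the TMM-scaled library total. Ratios and shares were computed from TPM. The rule for named genes took the 7 members, called genes of the pathway lists or, where a list had none, its most abundant gene, and the 3 nearest profiles of members past both thresholds. The members and lists were chosen with earlier results of these data known. One item that the rule would name is not reported here. Evc, Hhat, Scube2, Scube3, Sufu, Kif7 and Gpr161 are named outside this rule and were chosen after their values were seen.

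On simulated counts for the 13888 genes of the comparison, with 200 changed, the test recovered 26%, 72%, 90% and 80% of the genes changed 2, 4, 8 and 16-fold. Alternatives were DESeq2, other library scalings (RLE, upper quartile), other filters (none, or an average of 50 counts), a replicate block, limma on TPM values with pseudocounts of 1 and 0.1 before the log2, FPKM in place of TPM for ratios and shares, each library left out, and no fold minimum. Libraries of a group differed by more than sampling noise in every pair (chi-square per degree of freedom 33.8 or more). No other column of per-sample values was present. RefSeq windows came from GRCm38.p6, GENCODE gene spans from GRCm38. Software comprised edgeR 4.0.16, DESeq2 1.42.0 and limma 3.58.1 under R 4.3.3, and scipy 1.17.1 and matplotlib 3.10.9 under Python 3.11.15.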

Additional observations from a re-analysis of the deposited data

How the results depend on the processing

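Of 98 alternative fits of the 7 genes (14 for each), 97 kept the direction and the side of the adjusted p of 0.05, and none reversed. The exception was Cdon without control replicate 2 (0.93, adjusted p = 0.0527). When single libraries were omitted Cdon lay between 0.92 and 1.16 (log2), and over all its alternatives the adjusted p ran from 7.79e-05 to 0.0527. Between 2 and 4 of the 7 genes passed both thresholds, and Cdon and Boc lie near the 2-fold minimum. Upper quartile scaling and 4 of the 6 omissions of a library gave 2, and both limma fits gave 4. In those limma fits Boc was at 1.08 and 1.09, on a TPM scale where the median of all tested genes lay at 0.19 and 0.22. Over all alternatives Hhip stayed between 8.68 and 10.2, Boc between 0.81 and 1.09, Smo between 0.024 and 0.40, Gas1 between -0.88 and -0.42 and Disp1 between -0.28 and -0.0082. Without the fold minimum 1178 of all tested genes passed, against 763 with it, by construction. Of the other pathway genes 5 passed both thresholds, 3 in limma on log2(TPM + 0.1) and 3 to 6 when single libraries were omitted.

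No pairing by replicate number was detected, as deviations of same-numbered libraries correlated at r = -0.046, -0.049 and 0.039. Such correlations cannot show that the samples were unpaired by design. With the replicate block 3 of the 7 genes again passed both thresholds, Cdon was at 1.02 (adjusted p = 0.0208), and no call among the 7 genes changed. Depth limited the control levels of Hhip, at 12 to 31 counts, and of Gli1, at 1 to 36 counts. An adjusted p above the threshold for Gas1, Smo or Disp1 does not show that their levels were equal.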
